A study of Mus musculus with 13 samples.

Results

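The 9 genes described here encode complement proteins other than C1q and adipsin: the classical-pathway proteases *C1ra*, *C1s1* and *C2*, the classical component *C4b*, the central component *C3*, the alternative-pathway genes *Cfb* and *Cfp*, the inhibitor *Serping1*, and *C3ar1*, the receptor for the C3a fragment. They were chosen by symbol from 33618 Ensembl genes counted in mouse parametrial white adipose tissue (pmWAT). All 9 were among the 16753 genes that passed the filter on low counts. *Lmna fl/fl* control mice (7 female mice) carry loxP sites around 2 exons of *Lmna*, the gene for lamin A/C, on both alleles. *Lmna* iADKO mice (6 female mice) carry the same floxed alleles and the *Adipoq*-CreERT2 transgene, whose Cre is made in adipocytes and needs tamoxifen to act. Mice of both genotypes received tamoxifen, 50 mg/kg a day for 5 days, at 12 to 14 weeks of age, and whole pmWAT was taken 2 weeks posttamoxifen. The controls lack the Cre transgene, so an effect of CreERT2 itself cannot be told apart from loss of lamin A/C, and the sources used here do not give a background strain for these mice.

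Complement is a cascade of plasma and tissue proteins that marks cells and debris for removal. The classical pathway starts when C1q activates the proteases C1r and C1s. C1s then cleaves C4 and C2, whose fragments form a C3 convertase. The alternative pathway builds its own convertase from C3b and factor B. Adipsin cleaves factor B, and properdin stabilizes the convertase. Cleavage of C3 releases C3a, a signal read by the C3a receptor on myeloid and other cells, and the C1 inhibitor encoded by *Serping1* blocks C1r and C1s. Liver makes most circulating complement, and adipose tissue is known as the main source of adipsin.

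Of the 9 genes, *C3ar1* and *Cfp* rose in *Lmna* iADKO pmWAT, by 1.86-fold and 1.65-fold, and none fell (edgeR's quasi-likelihood test with Benjamini-Hochberg adjustment across the whole table, threshold 0.05). The background was 14.1% of all genes higher and 16.3% lower, so 2 of 9 is not far above it. At an unadjusted p under 0.05, 5 of the 9 genes were higher, where 21.4% of all genes were, and 0 were lower, and DESeq2 also called 0 lower. The median log2 fold change was 0.29 over the 9 genes and 0.03 over all genes tested. In none of the 9 genes did every iADKO mouse lie above every fl/fl mouse, which 2.71% of all genes tested showed. Of the mice of each genotype, fl/fl 5 was the highest fl/fl mouse in 8 of the 9 genes and iADKO 6 the lowest iADKO mouse in 9 of 9.

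Values are CPM, the counts of a gene scaled to a common library size by TMM normalization, and each ± is the SD between mice. Between 18854223 and 19776491 reads per library were counted on genes. The libraries carry different animal numbers, so p-values measure the spread between mice. *Lmna*, counted over the whole gene, did not fall in libraries with the iADKO label (84.7 ± 7.51 CPM in fl/fl, n = 7, and 96.7 ± 11.5 CPM in iADKO, n = 6, adjusted p = 0.0785), so each direction rests on the labels. The summed adipocyte markers were higher in every mouse labelled fl/fl than in every mouse labelled iADKO, and 7 of the 8 markers were called lower in iADKO. In the genes described here 1 mouse of each label, fl/fl 5 and iADKO 6, lay toward the other genotype, and whether their tissues or libraries were exchanged was not tested. Over all genes 2367 were higher and 2737 lower, whereas scaling by library totals alone gave 7397 and 1276 and moved the median of all genes from 0.03 to 0.24. Adipocyte marker sums were 16800 to 29200 CPM in fl/fl and 11010 to 16620 CPM in iADKO. In whole tissue, fewer cells of a type and less RNA per cell cannot be told apart.

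The 250 bases before the annotated start of the canonical transcript are shown for *C1ra*, *C1s1* and *C3*, whose levels moved together from mouse to mouse, and for *Cfp* and *C3ar1*, the 2 genes that rose. They were read from GRCm39, written 5′ to 3′ on the strand of the gene, and hold no annotated exon. Capitals mark matches, on either strand, to any of 6 motifs: the TATA box written as TATAAA, and TTGCNNAA (C/EBP), TTCNNNGAA (STAT), GAAANNGAA (interferon response), GGGNNTTTC (NF-kB) and GAGGAAGT (PU.1), where N is any base.
C1ra: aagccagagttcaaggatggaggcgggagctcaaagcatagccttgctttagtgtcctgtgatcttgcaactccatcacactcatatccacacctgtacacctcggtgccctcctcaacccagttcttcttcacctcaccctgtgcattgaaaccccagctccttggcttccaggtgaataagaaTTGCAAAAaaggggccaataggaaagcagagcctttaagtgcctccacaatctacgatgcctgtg
C1s1: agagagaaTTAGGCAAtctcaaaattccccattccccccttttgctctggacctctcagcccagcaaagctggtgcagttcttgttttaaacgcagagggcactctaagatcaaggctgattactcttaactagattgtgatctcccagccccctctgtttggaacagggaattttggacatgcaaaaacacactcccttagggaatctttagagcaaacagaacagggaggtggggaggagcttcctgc
C3: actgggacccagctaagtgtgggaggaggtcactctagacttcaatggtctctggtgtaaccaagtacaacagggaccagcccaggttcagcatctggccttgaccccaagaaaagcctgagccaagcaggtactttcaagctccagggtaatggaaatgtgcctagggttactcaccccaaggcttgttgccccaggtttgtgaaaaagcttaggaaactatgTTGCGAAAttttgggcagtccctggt
Cfp: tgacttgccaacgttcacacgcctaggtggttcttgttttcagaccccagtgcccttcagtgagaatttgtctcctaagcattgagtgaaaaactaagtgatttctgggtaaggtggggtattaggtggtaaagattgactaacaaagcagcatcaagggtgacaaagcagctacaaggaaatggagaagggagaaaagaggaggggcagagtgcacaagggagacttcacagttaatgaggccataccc
C3ar1: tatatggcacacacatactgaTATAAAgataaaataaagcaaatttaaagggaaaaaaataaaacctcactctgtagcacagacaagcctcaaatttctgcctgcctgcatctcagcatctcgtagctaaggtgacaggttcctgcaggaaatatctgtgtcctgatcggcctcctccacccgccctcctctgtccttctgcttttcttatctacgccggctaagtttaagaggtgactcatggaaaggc
The windows lie at chr6:124489114-124489363 (plus strand), chr6:124519319-124519568 (minus strand), chr17:57535156-57535405 (minus strand), chrX:20797795-20798044 (minus strand) and chr6:122833123-122833372 (minus strand). The *C1s1* window lies inside the annotated span of the gene, which has longer transcripts. C/EBP letters were found before *C1ra* (TTGCAAAA, 65 to 58 bases before the start), *C3* (TTGCGAAA, 26 to 19 bases before) and *C1s1* (TTAGGCAA, 242 to 235 bases before), and before none of the other 6 genes. These letters occur in 9.34% of the 21770 protein-coding windows of the same length. *C4b* moved nearly as closely with these genes but lacks the letters, and a link between letters and shared movement was not tested. The *C3ar1* window held only a TATA box far from the start, a motif that 11.9% of all windows hold. The *Cfp* window held none of the 6 motifs. Before *C4b*, interferon response letters (TTCTGTTTC, 37 to 29 bases before the start) were found, which 7.55% of windows hold. STAT, NF-kB and PU.1 letters were found before none of the 9 genes and in 7.7%, 3.83% and 2.08% of all windows. The matched strings overlapped no other match. GC content was 50.4% for *C1ra*, 48.0% for *C1s1*, 51.2% for *C3*, 46.8% for *Cfp* and 44.4% for *C3ar1*, below the median of 53.2% over all windows.

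*C1ra* and *C1s1* encode the paired serine proteases of the C1 complex. *C1ra* (ENSMUSG00000055172, chr6:124489364-124500402, plus strand, 11 exons) ranged from 171.8 to 306.0 CPM in fl/fl with a median of 211.1, and from 187.3 to 343.1 CPM in iADKO with a median of 293.1. The genotypes overlapped because fl/fl 5, at 306.0 CPM, lay above 5 of the 6 iADKO mice and iADKO 6, at 187.3 CPM, lay among the low fl/fl mice. The means were 220.5 ± 45.6 CPM (n = 7) and 279.3 ± 53.1 CPM (n = 6), a log2 fold change of 0.34 (SE 0.147, adjusted p = 0.0912). *C1s1* (ENSMUSG00000038521, chr6:124507297-124559389, minus strand, 12 exons) ranged from 518.3 to 903.9 CPM in fl/fl (median 590.8) and from 479.0 to 913.4 CPM in iADKO (median 769.7). Its means were 628.7 ± 136 and 746.2 ± 143 CPM, a log2 fold change of 0.25 (SE 0.152, adjusted p = 0.23). In iADKO, 4 of the 6 mice lay close together between 762.3 and 782.9 CPM, with iADKO 1 above them and iADKO 6 far below. The neighbouring paralogs were low. *C1rb* was at 0.641 ± 0.538 and 0.875 ± 0.457 CPM (log2 fold change 0.43, adjusted p = 0.518) and *C1s2* at 2.45 ± 1.06 and 3.69 ± 1.07 CPM (0.59, adjusted p = 0.0822). Of the stretches of 100 bases, the read length, in the canonical transcripts, 34.5% of *C1ra* were also in *C1rb* and 7.99% of *C1s1* in *C1s2*, so single reads from those stretches cannot be placed, and values of these pairs are uncertain to that extent.

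*C4b* and *C2* supply the 2 parts of the classical C3 convertase, and they differed in level and behaviour. *C4b* (ENSMUSG00000073418, chr17:34947354-34962912, minus strand, 41 exons) ranged from 584.5 to 1353 CPM in fl/fl (median 904.6) and from 614.5 to 1278 CPM in iADKO (median 1074). The highest and almost the lowest of the 13 values belonged to fl/fl 5 and iADKO 6, and the groups overlapped over nearly their whole range. The means were 884.7 ± 257 and 1026 ± 231 CPM (log2 fold change 0.21, SE 0.196, adjusted p = 0.424). Its paralog *C4a*, which shares 16.3% of the 100-base stretches of *C4b*, was at 1.05 ± 0.428 and 1.09 ± 0.38 CPM. *C2* (ENSMUSG00000024371, chr17:35081578-35117241, minus strand, 18 exons) ranged from 18.2 to 22.2 CPM in fl/fl (median 20.1) and from 12.6 to 24.9 CPM in iADKO (median 20.6). Both means were 20.02 CPM, with an SD of 1.36 in fl/fl and 4.61 in iADKO. The iADKO mice lay on both sides of all fl/fl mice, 2 above the highest and 2 below the lowest. The log2 fold change was 0.00 (SE 0.127, adjusted p = 0.998), with a 95% interval of -0.28 to 0.28.

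*C3*, on which all activation pathways converge, was the most abundant of the 9 genes per length of transcript. It lies at chr17:57510964-57535155 (ENSMUSG00000024164, minus strand, 41 exons) and ranged from 5019 to 10180 CPM in fl/fl (median 6342) and from 4651 to 9645 CPM in iADKO (median 7940). The highest value of all 13 was that of fl/fl 5 and the lowest that of iADKO 6, and 5 of 6 iADKO mice lay above the fl/fl median. The means were 6412 ± 1800 and 7545 ± 1783 CPM, a log2 fold change of 0.23 (SE 0.197, adjusted p = 0.38, 95% interval -0.20 to 0.67).

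*Cfb* encodes factor B, the catalytic part of the alternative C3 convertase, and *Cfp* encodes properdin, which stabilizes that convertase and is made mainly by myeloid cells. *Cfp* (ENSMUSG00000001128, chrX:20791688-20797794, minus strand, 9 exons) ranged from 72.2 to 134.8 CPM in fl/fl (median 80.7) and from 105.6 to 181.7 CPM in iADKO (median 154.0). Apart from fl/fl 5, every fl/fl mouse lay below every iADKO mouse, and the next highest fl/fl mouse was fl/fl 7 at 95.6 CPM. The means were 88.8 ± 21.7 and 146.3 ± 26.9 CPM, a log2 fold change of 0.72 (SE 0.153, adjusted p = 0.00404, 95% interval 0.38 to 1.06). *Cfb* (ENSMUSG00000090231, chr17:35074852-35081559, minus strand, 18 exons) was the scarcest, with 37 to 99 reads per mouse. It ranged from 1.99 to 3.04 CPM in fl/fl (median 2.76) and from 2.26 to 4.75 CPM in iADKO (median 3.63). In iADKO, 4 of 6 mice lay above the highest fl/fl mouse, and iADKO 3 and 6 lay within the fl/fl range. The means were 2.61 ± 0.451 and 3.54 ± 1.04 CPM, a log2 fold change of 0.44 (SE 0.189, adjusted p = 0.0916).

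*Cfb* and *C2* are uncertain for another reason. They are neighbours on chromosome 17, and the annotation holds a read-through gene, *Gm20547*, on the same strand that shares 65.7% of the exonic bases of *Cfb* and 38.4% of those of *C2*. No counts of *Gm20547* were analysed here, and a counting method that drops reads shared by 2 genes would lower both values. On the opposite strand, *Nelfe* shares 49.8% of the exonic bases of *Cfb*. The library kit marks strand, but the strand setting of the counting is not given in the sources used here. The level of the read-through gene in each genotype is not known here, and its part in the difference was not tested. Opposite-strand genes shared 16.6% of the exonic bases of *C1s1*, 16.0% of *Cfp*, 6.44% of *C3* and 6.04% of *C4b*, while no gene overlapped *Serping1* or *C3ar1*.

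*Serping1* encodes the C1 inhibitor, a serpin that also restrains contact-system proteases. It lies at chr2:84595705-84620873 (ENSMUSG00000023224, minus strand, 8 exons) and ranged from 440.4 to 636.0 CPM in fl/fl (median 483.0) and from 456.0 to 724.8 CPM in iADKO (median 686.2). In fl/fl, mice 2, 5 and 7 lay between 572.3 and 636.0 CPM and the other 4 at or below 483.0 CPM, while 4 of 6 iADKO mice lay above all fl/fl mice. The means were 528.1 ± 78.2 and 645.2 ± 103 CPM, a log2 fold change of 0.29 (SE 0.12, adjusted p = 0.0803). Leaving out fl/fl 7 alone brought it past the threshold (0.34, adjusted p = 0.0471), as did leaving out fl/fl 5 (0.33, adjusted p = 0.0395) or iADKO 6 (0.37, adjusted p = 0.0123). They were the highest fl/fl mice and the lowest iADKO mouse, so leaving any of them out raises the difference by construction. Leaving out any other single mouse kept it short of the threshold (adjusted p = 0.0881 to 0.159).

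*C3ar1* encodes a G protein-coupled receptor found on macrophages and other myeloid cells and also known from adipocytes. It lies at chr6:122823393-122833122 (ENSMUSG00000040552, minus strand, 2 exons) and ranged from 39.0 to 102.2 CPM in fl/fl (median 48.2) and from 67.3 to 130.1 CPM in iADKO (median 111.0). In iADKO, 5 of 6 mice lay above every fl/fl mouse, the fifth of them only just above fl/fl 5 (103.5 against 102.2 CPM), and iADKO 6 lay below fl/fl 5 and 7. The means were 57.9 ± 22.8 and 107.8 ± 22.1 CPM, the widest difference of the 9 genes on the log2 scale at 0.89 (SE 0.228, adjusted p = 0.0111, 95% interval 0.39 to 1.39).

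**Figure D1:**
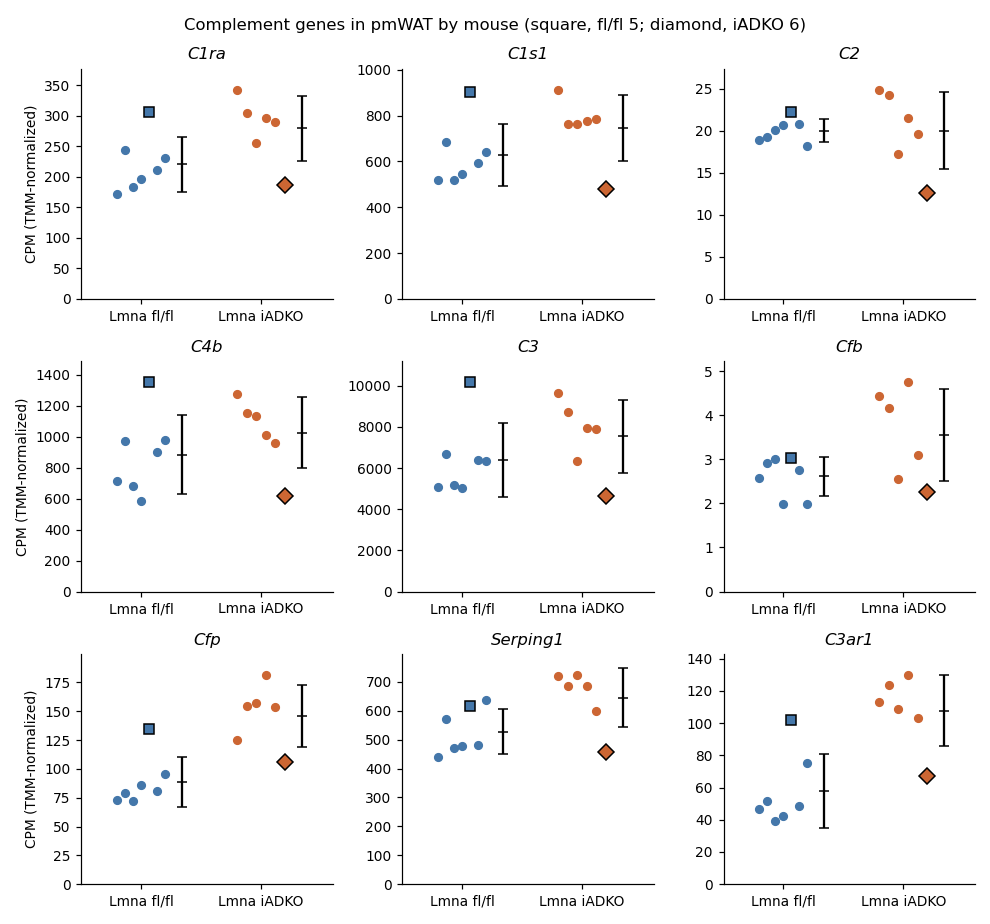
Level of each of the 9 genes in CPM (TMM-normalized, y axis from 0) in 7 *Lmna fl/fl* and 6 *Lmna* iADKO mice. Each point is 1 mouse, the bar to the right of each group is the mean ± SD, and outlined symbols mark fl/fl 5 (square) and iADKO 6 (diamond). The square is the highest fl/fl value in 8 genes and the diamond the lowest iADKO value in 9.

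Per kilobase of annotated exon, the levels spread widely in fl/fl. *C3* was at 1237 ± 347 CPM per kb, followed by *C1s1* (181 ± 39.3), *Serping1* (174 ± 25.7) and *C4b* (146 ± 42.5), 3 neighbours whose ranges over mice overlapped. *C1ra* (69.2 ± 14.3 CPM per kb) and *Cfp* (51.0 ± 12.5) also overlapped. *C3ar1* (11.6 ± 4.55), *C2* (4.64 ± 0.315) and *Cfb* (0.763 ± 0.132) followed in that order with no overlap between neighbours. Per length, *C1s1* exceeded its partner *C1ra*, and *C3* exceeded every other gene of the 9 in each mouse. In iADKO the order was unchanged, with *C3* at 1456 ± 344, *C1s1* at 215.0 ± 41.2, *Serping1* at 212 ± 33.9, *C4b* at 169 ± 38.1, *C1ra* at 87.6 ± 16.7 and *Cfp* at 84.0 ± 15.5 CPM per kb.

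Because fl/fl 5 and iADKO 6 stood apart, each comparison was also run without them. They are the mice nearest the other genotype, so leaving them out widens the differences by construction, and the adjusted p-values of these 11 mice are too small and add no independent evidence. Of the 9 genes, 8 were then higher and 0 lower, beside 19.6% of all genes tested that were higher, and the median log2 fold change was 0.47. *C2* stayed at 0.11 (adjusted p = 0.357), while *C3ar1* was at 1.17, *Cfp* at 0.90, *Cfb* at 0.56, *C1ra* at 0.51, *C3* at 0.47, *C4b* at 0.44, *C1s1* at 0.43 and *Serping1* at 0.39. In 4 genes (*C1ra*, *C1s1*, *Cfp* and *C3ar1*) every remaining iADKO mouse lay above every remaining fl/fl mouse, which 12.0% of all genes did. Without fl/fl 5 alone, 5 of the 9 genes were called higher (*C3ar1*, *Cfp*, *C1ra*, *C1s1* and *Serping1*), beside 19.9% of all genes tested. Without iADKO 6 alone the count was also 5 (*C3ar1*, *Cfp*, *Cfb*, *C1ra* and *Serping1*), beside 15.9%.

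**Figure D2:**
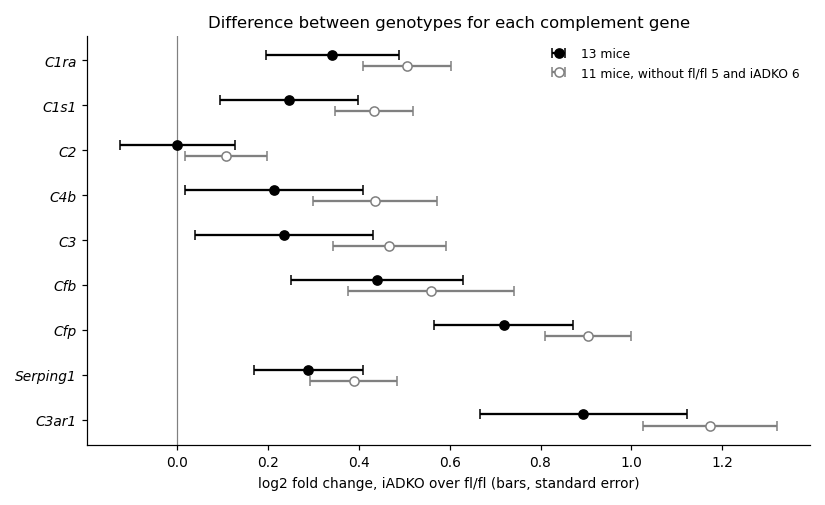
Log2 fold change (iADKO over fl/fl, x axis) of each gene with its standard error, in all 13 mice (filled) and in the 11 mice without fl/fl 5 and iADKO 6 (open). In 13 mice *C2* is at 0.00 and *C3ar1* at 0.89, and each open point lies to the right of its filled point.

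The pair moved across the whole group rather than in single genes. Relative to the mean of its own genotype, fl/fl 5 was higher in every one of the 9 genes, by 0.15 to 0.90 in log2 CPM (median 0.55), and iADKO 6 was lower in every one, by 0.45 to 0.70 (median of the deviations -0.61). The medians of the other 11 mice lay between -0.25 and 0.32. Averaged over the 9 genes, iADKO 6 was 0.22 log2 units below the fl/fl mean, and fl/fl 5 was 0.51 above it, within the range of the other 5 iADKO mice (0.34 to 0.62 above).

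**Figure D3:**
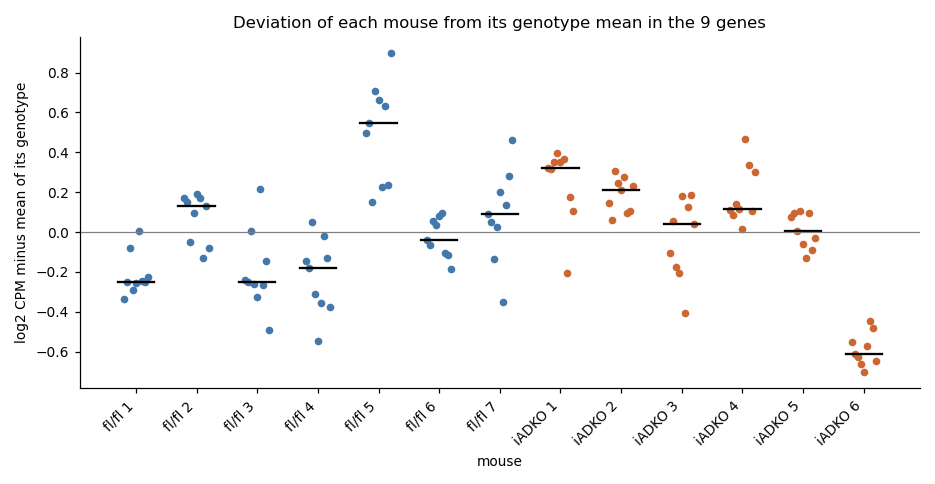
Deviation of each mouse from the mean of its genotype in log2 CPM (y axis), 1 point per gene, with the median of the 9 genes as a bar. The points of fl/fl 5 all lie above 0, with a median of 0.55, and those of iADKO 6 all lie below 0.

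Marker genes of cell types moved with these values. The summed level of 9 macrophage markers was 1884 to 5006 CPM in fl/fl (median 2215) and 2850 to 4931 CPM in iADKO (median 4228), and 5 of the 9 markers were higher (*Adgre1*, *Cd68*, *Csf1r*, *Fcgr1* and *Mrc1*). The highest fl/fl sum was that of fl/fl 5 (5006 CPM) and the lowest iADKO sum that of iADKO 6 (2850 CPM). The same mice were at the ends of their genotypes for 9 fibroblast and adipose progenitor markers (9286 and 5505 CPM) and 7 mesothelial markers (799.7 and 397.1 CPM), of which 0 were called in either direction, and for the adipocyte markers. For adipocyte markers the 2 mice nearly met, fl/fl 5 being the lowest fl/fl mouse at 16800 CPM and iADKO 6 the highest iADKO mouse at 16620 CPM. No marker of these 4 lists was at 0 in any library. Of 6 endothelial markers 2 were lower, and their sum was lowest in fl/fl 5 (844.3 CPM) among fl/fl mice and highest in iADKO 6 (1022 CPM) among iADKO mice. Skeletal muscle markers, of which 0 of 5 were called, were highest of all 13 mice in fl/fl 5 (354.0 CPM), and epithelial markers, of which 2 of 4 tested were higher, in iADKO 6 (269.1 CPM, with the next mouse at 76.4 CPM). Lymphocyte and other immune lists also differed by genotype: 3 of 6 T cell, 3 of 5 dendritic cell, 2 of 5 B cell and 1 of 6 neutrophil markers were higher. The T cell sums did not overlap (17.1 to 29.3 CPM in fl/fl and 31.9 to 37.0 CPM in iADKO), and fl/fl 5 and iADKO 6 lay on the side of their labels. Of 5 mural and smooth muscle markers 1 was lower. The part of cell composition in the differences of the 9 genes was not tested.

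With genotype means subtracted, most of the 9 genes followed several marker lists at once over the 13 mice. *C3ar1* had its highest value with the macrophage markers (Pearson r = 0.96, Spearman rho = 0.96, and r = 0.86 without fl/fl 5 and iADKO 6). It also had 0.68 with the dendritic cell and 0.65 with the neutrophil markers (0.84 and 0.73 in the 11 mice). Over the 13 mice *Cfp* also had its highest value with the macrophage markers (0.91, rho = 0.82, and 0.66 in the 11 mice). With the T cell markers it had 0.55, and 0.67 in the 11 mice. *Serping1* had 0.85 with the macrophage markers (rho = 0.87, and 0.80 in 11 mice), 0.89 with the fibroblast and adipose progenitor markers (0.73 in 11 mice) and 0.77 with the dendritic cell markers (0.88 in 11 mice). *C1s1* had 0.89 with the progenitor and 0.88 with the macrophage markers (0.66 and 0.51 in 11 mice), and *C1ra* had 0.86 with the macrophage, 0.84 with the progenitor and 0.84 with the mesothelial markers (0.54, 0.53 and 0.62). *C3* had 0.85 with the mesothelial and 0.83 with the macrophage markers (0.67 and 0.32), and *C2* had 0.84 with the mesothelial and 0.52 with the macrophage markers (0.72 and -0.19). *C4b* had 0.81 with both the progenitor and the macrophage markers (0.49 and 0.39), and *Cfb* had 0.73 with the mesothelial markers (0.57). Other lists ran the opposite way. With endothelial markers *C4b* had -0.89 (-0.82) and *C3ar1* -0.85 (-0.66). With adipocyte markers *Cfp* had -0.86 (-0.56) and *C1ra* -0.81 (-0.48). These values assign none of the 9 genes to a cell type. The correlations are descriptions over mice that share 1 normalization.

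Hepatocyte markers set apart another pair of mice. Their sum was 219.4 CPM in fl/fl 2 and 159.0 CPM in fl/fl 7, and at most 21.7 CPM in the other 11 mice. Liver expresses several of the 9 genes strongly. Among fl/fl mice, fl/fl 2 and 7 were the highest after fl/fl 5 in *C1ra* (244.3 and 231.0 CPM), *C1s1* (684.3 and 640.2 CPM) and *C4b* (974.7 and 980.6 CPM), and in *Serping1* fl/fl 7 was the highest and fl/fl 2 the third (636.0 and 572.3 CPM). In *C3* they were at 6672 and 6342 CPM. The ranking was not limited to genes known from liver. Both mice also came next after fl/fl 5 in *C3ar1* (51.8 and 75.4 CPM) and in the summed macrophage markers (2381 and 3294 CPM). *C3*, *Cfp*, *C2* and *Cfb* did not follow this order. The part of liver RNA in these values was not tested. Without fl/fl 2 and 7, *Cfp* (0.71, adjusted p = 0.016), *C3ar1* (0.95, adjusted p = 0.0238) and *Serping1* (0.37, adjusted p = 0.0492) were higher, as were 1938 of all genes tested. Their share was not computed for this setting, and in the 13 mice 2367 of 16753 genes (14.1%) were higher. In *Serping1* and *C3ar1* fl/fl 2 and 7 were among the higher fl/fl mice, so leaving them out widens the difference by construction.

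The animal numbers in the library names fall into 4 runs, of which 2 hold both genotypes. Among the 3 fl/fl and 2 iADKO mice of one run, all 9 genes were higher in iADKO, with a median difference of 0.64 in log2 CPM, 1.38 for *C3ar1* and 0.89 for *Cfp*. Among the 2 fl/fl and 2 iADKO mice of the other run, which holds both fl/fl 5 and iADKO 6, 4 of 9 genes were above 0 with a median of -0.05, and *C3ar1* and *Cfp* differed by 0.51 and 0.36. The labels do not say what the numbers mark, and these differences are given as values without a test. With the run as a block, *Cfp* stayed past the threshold (0.66, adjusted p = 0.0398) and *C3ar1* did not (0.96, adjusted p = 0.061). The remaining runs hold 1 genotype each, so under this block their mice do not inform the genotype difference and precision is lower.

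Within genotypes, the 9 genes rose and fell together over mice. All 36 pairwise Pearson correlations of log2 CPM with genotype means subtracted were above 0 in 13 mice, from 0.27 (*Cfb* and *Cfp*) to 0.97 (*C1ra* and *C1s1*), with a median of 0.75. Without fl/fl 5 and iADKO 6, 27 of 36 were above 0 and the median was 0.47, so much of the shared movement rested on those mice. The same values over pairs of all genes were not computed, so the movement is not shown to be particular to the 9 genes. *C1ra*, *C1s1* and *C3* kept close company: *C1ra* and *C1s1* had r = 0.97 (rho = 0.94) in 13 mice and 0.92 in 11, and *C1ra* and *C3* had r = 0.97 (rho = 0.93) and 0.91. *C4b* was nearly as close, with r = 0.93 to *C1s1*, 0.91 to *C3* and 0.90 to *C1ra* (0.79, 0.71 and 0.69 in the 11 mice). For *Cfp* and *C3ar1* the values were 0.88 (rho = 0.86) and 0.59. *Cfp* did not move with *C1ra*, *C1s1* or *C3* in the 11 mice (0.08, -0.01 and -0.11), although all were among the 8 genes higher there.

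**Figure D4:**
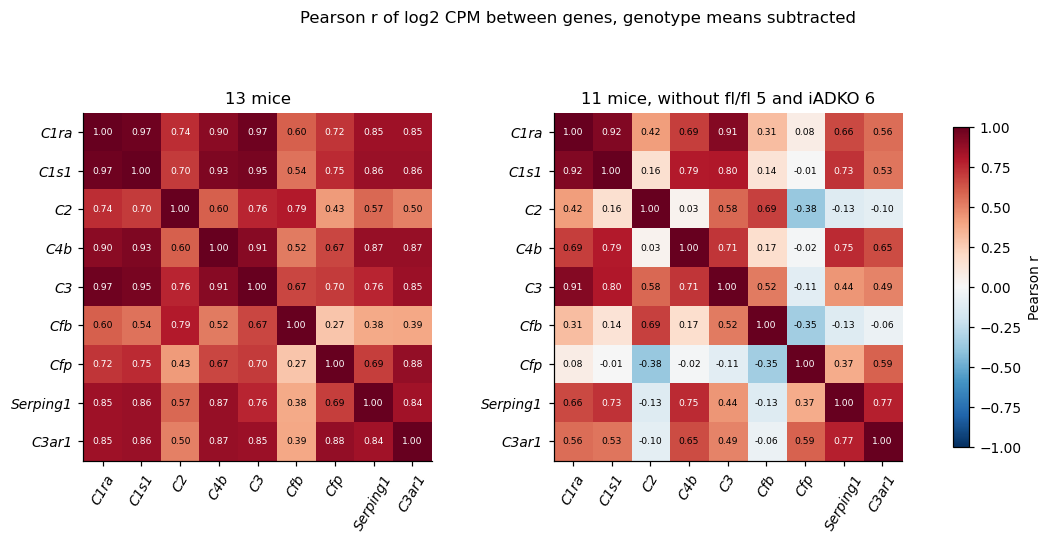
Pearson r between the 9 genes over mice (log2 CPM with each genotype's mean subtracted), for 13 mice on the left and for the 11 mice without fl/fl 5 and iADKO 6 on the right; red is positive and blue negative. *C1ra* with *C1s1* reads 0.97 on the left and 0.92 on the right, and *Cfb* with *Cfp* 0.27 and -0.35.

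Among 13854 genes searched, the 3 genes most like *C1ra* over the 13 mice included *C1s1* and *C3* (r = 0.97 each), and those most like *C1s1* included *C1ra* and *Bicc1* (0.96). *C3* was most like *Slc30a7* (0.98), *C1ra* and *Dpysl5* (0.97). *C3ar1* was most like *Apobec1*, *Sirpa* and *Uap1l1* (0.98 each), all higher in iADKO, and *Cfp* most like *Stab2*, *Arid3a* and *Zswim4* (0.97 each), likewise higher. *C2* was most like *Begain* (0.96), *Lrrn4* (0.94), which is on the mesothelial marker list, and *Crb2* (0.94). The leading genes were *Pros1* (0.97), *B4galt1* (0.95) and *Npl* (0.94) for *Serping1*, *Gm14461* (0.96), *Abi1* (0.95) and *Stx3* (0.95) for *C4b*, and *Iqsec2* (0.93), *Ttll12* (0.89) and *Bicdl1* (0.87) for *Cfb*. Such values are the highest of a large search and are given as a description.

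Of 50 other complement genes listed, 49 had counts and 36 passed the filter. Of these 36, 8 were higher and 5 lower, beside 14.1% and 16.3% of all genes tested. With scaling by library totals alone 15 were higher, as were 7397 of all genes. The median log2 fold change was 0.16 over the 36 genes and 0.03 over all genes tested. Among initiators, *C1qa*, *C1qb* and *C1qc*, the C1q chains (0.67, 0.76 and 0.69, adjusted p = 0.00661, 0.0107 and 0.00837), and *Fcna*, ficolin A (0.47, adjusted p = 0.0386), rose. *C1rl*, a C1r-like protease, fell by 0.72 (adjusted p = 2.66e-04) from 27.5 ± 3.12 to 16.7 ± 2.09 CPM, unlike *C1ra*. In the alternative pathway *Cfd*, adipsin, the protease that cleaves factor B, fell by 0.69 (adjusted p = 0.00462) from 8014 ± 1135 to 4960 ± 1202 CPM. The genes for its partners, *Cfb* and *C3*, were not called (0.44 and 0.23, adjusted p = 0.0916 and 0.38). Of the other 6 receptor genes 4 rose: the C5a receptors *C5ar1* (0.97, adjusted p = 0.00357) and *C5ar2* (0.92, adjusted p = 0.00264), and *Itgax* (1.01, adjusted p = 0.0429) and *Itgb2* (0.97, adjusted p = 0.0292), chains of the integrin CR4 that binds cleaved C3. *Itgax*, *Itgb2* and *Fcna* each lost the call in 11 or more of 24 alternative settings. With the run of animal numbers as a block, adjusted p was 0.0547 for *C1qa*, 0.0575 for *C1qb*, 0.0507 for *C1qc* and 0.0531 for *Cfd*, each above 0.05. The log2 fold changes under this block were 0.64, 0.80, 0.71 and -0.60, near those of the main fit.

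Of 4 terminal components tested only *C8g* was called, falling by 0.85 (adjusted p = 0.00526) from 3.83 to 2.12 CPM. Of 8 membrane regulators tested, *Cd59a* (fell by 0.57, adjusted p = 0.0166) and *Cd59b* (fell by 0.76, adjusted p = 0.00715), which block the terminal pore, were called. Under the same block they were at -0.55 and -0.72 (adjusted p = 0.0984 and 0.0734). Of 4 other fluid-phase regulators tested, 0 were called by edgeR in 13 mice, 0 had an unadjusted p under 0.05 and 0 were called by DESeq2. Among them *Clu*, clusterin, was at 199.1 ± 63.4 and 246.2 ± 51.2 CPM (0.31, adjusted p = 0.25). The 13 listed genes below the filter, among them *C9*, *C8a*, *C8b* and *Mbl1*, had at most 23 reads in any mouse.

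**Figure D5:**
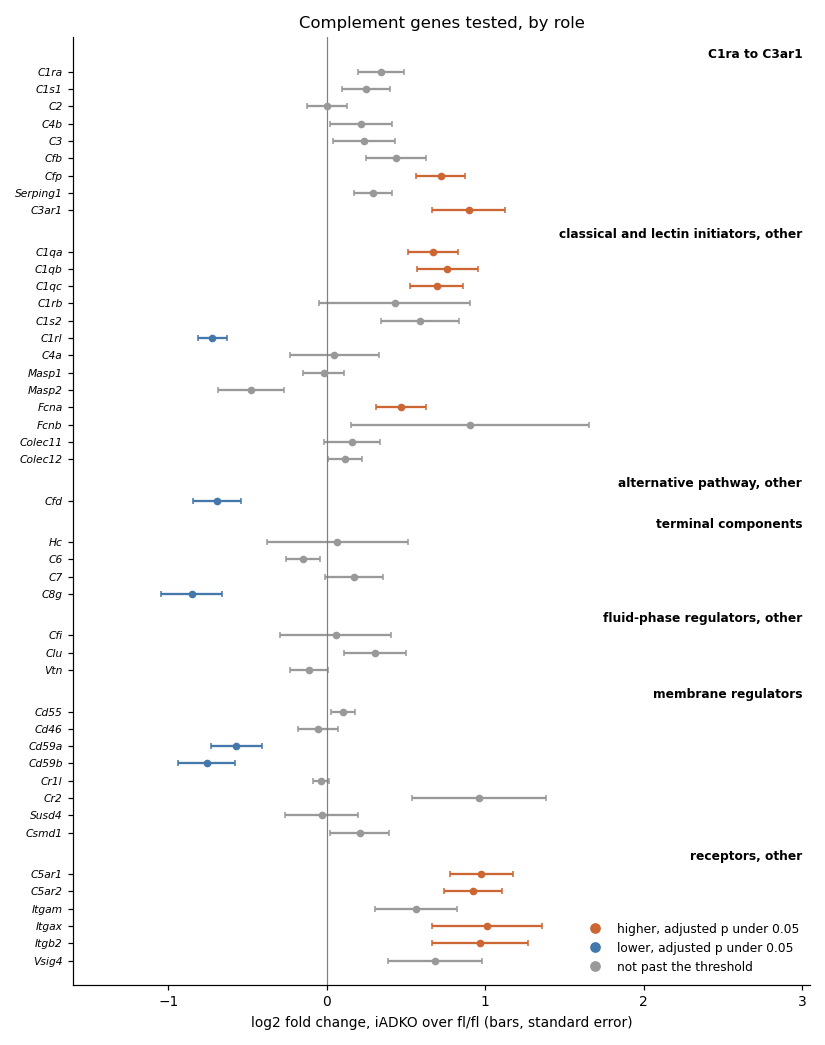
Log2 fold change (iADKO over fl/fl, x axis) with its standard error for the 9 genes, in the group at the top headed C1ra to C3ar1, and for the other complement genes tested, grouped by role, with 1 of the 36 not drawn. Orange marks genes higher and blue genes lower at an adjusted p under 0.05; the receptors lie to the right of 0, and *C1rl*, *Cfd*, *C8g*, *Cd59a* and *Cd59b* to the left.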

How the data were processed

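Strand-specific mRNA libraries from whole pmWAT were read in pairs of 100 bases. Per the labels, processing used FastQC 0.12.1, STAR 2.7.11a and DESeq2 with mm39; the counting tool and annotation are not given in the sources used here. The authors deposited unnormalized counts for each gene and log2 values made from them by DESeq2's regularized log (rlog). Each column matched 1 sample, and 0 columns were left unmatched. Genotypes came from the labels.

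In R 4.3.3, edgeR 4.0.16 (filterByExpr, TMM, robust quasi-likelihood fit, genotype as the only term) tested all genes, with Benjamini-Hochberg adjustment. Log2 CPM used a prior count of 2. Intervals used the standard error and 11 residual degrees of freedom. Coordinates, exons and sequences are from GRCm39 and GENCODE. The members and lists were chosen with earlier results of these data known. Named were all 9 members, listed complement genes past the threshold, paralogs, and the 3 most similar genes per member (average log2 CPM at least 1); *Clu*, *Lmna*, genes below the filter and markers called were named beside a result. Some single-gene values are not reported here. Same-numbered mice did not all deviate together, so the replicate number was not used as a pairing. On simulated counts with 200 changed genes among 16753, edgeR recovered 81% with 4.14% false calls. Of genes changed 1.5-fold, the smallest change simulated, 62.7% were recovered. The members not called had smaller estimated changes, for which recovery was not simulated. Alternatives were other scalings, filters and tests (DESeq2 1.42.0; limma 3.58.1 on the deposited log2 values), blocks, and mice left out. Pairs of libraries of one genotype differed by 8.16 to 88.8 in chi-square over degrees of freedom, so no library was a copy of another of its genotype. Pairs across genotypes were not compared in this way. Depth was nearly equal between libraries, and errors are the spread between mice, which includes counting error.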

Additional observations from a re-analysis of the deposited data

Results flagged for a closer look

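In 3 of 18 groups (9 genes in each genotype), the gap in log2 CPM between an extreme mouse and its nearest neighbour, as a share of the range of the group, was above Dixon's 95% critical value of 0.568 for 7 mice or 0.625 for 6. Chance flags about 1 group in 20, and the 9 genes are not independent of each other. The share was 0.72 for *C1s1* in iADKO 6, at 8.90 with the next mouse at 9.57. It was 0.653 for *C3ar1* in iADKO 6, at 6.08 with the next mouse at 6.70. For *C3* in fl/fl 5 it was 0.597, at 13.31 with the next mouse at 12.70. In all 3, the mouse lay toward the other genotype. On the CPM scale, 4 of 18 groups were above the value: *C1s1* in fl/fl 5 (0.57) and iADKO 6 (0.652), *C3* in fl/fl 5 (0.68) and *Cfp* in fl/fl 5 (0.626).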

How the results depend on the processing

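*Cfp* stayed higher and past the threshold in all 24 alternative settings (0.55 to 0.91), and *C3ar1* in all but the block on animal-number runs. The 2 higher members became 6 with library totals alone, 1 with the run block, 8 without fl/fl 5 and iADKO 6 together, and 2 to 5 with 1 mouse left out. Members called lower stayed at 0. The wider list had 8 higher; this was 15 with totals alone, 5 with no filter on low counts, 2 with the run block (and 2 lower instead of 5), 14 without fl/fl 5 and iADKO 6, 5 without fl/fl 2 and 7, and 5 (without fl/fl 1, 3 or 6 or iADKO 3 or 4) to 12 with 1 mouse left out. Over all genes, totals alone gave 7397 higher and 1276 lower, the run block 784 and 1202, and leaving out 1 mouse 1769 to 3319 and 2216 to 3285.

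*C2* turned below 0 with DESeq2's size factors (-0.0148), DESeq2 (-0.0175), no filter (-0.0121), rlog values (-0.0319), the replicate block (-0.0518) and without fl/fl 2 and 7 (-0.0369), and ran from -0.0675 to 0.10 with 1 mouse left out. *C4a* was at -0.0011 with the run block and from -0.13 to 0.25 with 1 mouse left out. The cause was not tested, and each of these values lay within the standard error of its 13-mouse estimate. With the replicate number as a block and fl/fl 7 left out, 2 members and 11 genes of the wider list were higher; same-numbered mice had residual correlations of -0.0265 to 0.217 across genes, so the numbers were not taken to pair mice. The setting without fl/fl 2 and 7 was added after the data were seen. *Cfb* rests on 37 to 99 reads per mouse.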
